A study of Homo sapiens with 16 samples.

Results

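This account describes 37 human genes of the lysosome and of autophagy among the 14857 genes listed for 16 RNA-seq libraries. The genes were chosen by symbol, as known lysosomal enzymes, lysosomal membrane proteins, autophagy proteins and their transcription factors. The rule used no measured value, but the genes were chosen with earlier results of these data known. All 37 were listed and tested. They comprised 7 proteases, 11 glycosidases and glycosaminoglycan enzymes, 6 enzymes or activators of lipid breakdown, 6 membrane proteins, 2 transcription factors and 5 autophagy proteins.

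The study asked how the transcriptome of MDA-MB-231 cells, a human triple-negative breast cancer line, differs when tristetraprolin (TTP) is expressed again. TTP is the product of ZFP36 and an RNA-binding protein that speeds the decay of mRNAs with AU-rich elements. The cells carried the tet-off system, where an introduced gene is transcribed once doxycycline is taken away, and were then stably transfected with a TTP plasmid (clones H3 and E11) or with an empty vector (EV, clones B and A). Each of the 4 lines is 1 clone, grown as 4 biological replicates. All cells were kept in G418 and hygromycin B. The TTP lines alone were kept in doxycycline, at 2 µg/mL, and the labels give a washout of these drugs of at least 24 h before experiments. TTP and doxycycline history therefore cannot be told apart, each arm rests on 2 clones, and the limma p-values reflect how cultures of 1 clone vary, not how clones vary.

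Lysosomes digest proteins, glycans and lipids with acid hydrolases, and autophagy brings them parts of the cell's own cytoplasm in membrane vesicles. TFEB and TFE3 are transcription factors that switch on many of these genes together when nutrients are short or lysosomes are damaged, by binding an E-box with the core CACGTG near their start sites. In aggressive breast cancer the lysosome is known for secreted cathepsins that act on the surrounding matrix.

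Groups were taken from the library names, from which the titles of 7 of the 8 TTP libraries differ. In normalized counts, which are read counts divided by a size factor per library, ZFP36 averaged 14365 ± 811 in TTP_H3, 10482 ± 337 in TTP_E11, 222 ± 8.8 in EV_B and 259 ± 26.3 in EV_A (SD, n = 4 each), so its level followed the library names. Reads on listed genes numbered 14380767 to 22066098 per library. The 6 basal-like and mesenchymal markers summed to 83017 to 86811 in TTP_H3, 84447 to 86240 in TTP_E11, 105053 to 105770 in EV_B and 98829 to 100300 in EV_A. VIM (log2 change -0.52), CD44 (-0.55) and AXL (-0.19) were lower in TTP, EGFR was higher (0.18), and MSN and SPARC did not pass. Of 7 luminal and receptor genes ESR1, PGR, CDH1 and FOXA1 were not listed. The other 3 summed to 2850 to 3401 in TTP_H3, 3238 to 3407 in TTP_E11, 2483 to 2825 in EV_B and 2774 to 2863 in EV_A, with ERBB2 higher in TTP (0.32), EPCAM lower (-0.22) and GATA3 not passing. Of 7 phagocyte and immune markers PTPRC, ITGAM and TYROBP were not listed, and the other 4 (CD14, CD68, CSF1R and LYZ) summed to 73.8 to 136 in TTP_H3, 85.3 to 98.3 in TTP_E11, 118 to 136 in EV_B and 181 to 209 in EV_A. Of these, CSF1R was lower in TTP (log2 change -1.17), and the part of these markers in the results below was not tested. None of 4 endothelial markers was listed.

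Replicate 3 of TTP_H3 and replicate 4 of EV_B stood apart from their clones. In replicate 3 of TTP_H3, 23 of the 37 genes lay below all other 3 libraries of the clone, where 31.1% of all genes did. In replicate 4 of EV_B this held for 27 of the 37, where 31.6% of all genes did. The median of the 37 was -0.11 in the TTP_H3 library and -0.095 in the EV_B library, on the log2 scale, against the other 3 libraries of the clone. Replicate 4 of TTP_E11 leaned the other way, with 23 of the 37 above all other 3 libraries and a median of 0.062. The share of all genes above was not counted, and this library was left out only on its own. Several results that rest on replicate 3 of TTP_H3 or replicate 4 of EV_B are given with and without both. Both libraries were picked for their distance from their clones, and leaving them out lowers the spread within clones. The p-values without them therefore lean low, and calls gained that way are a description.

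**Figure D1:**
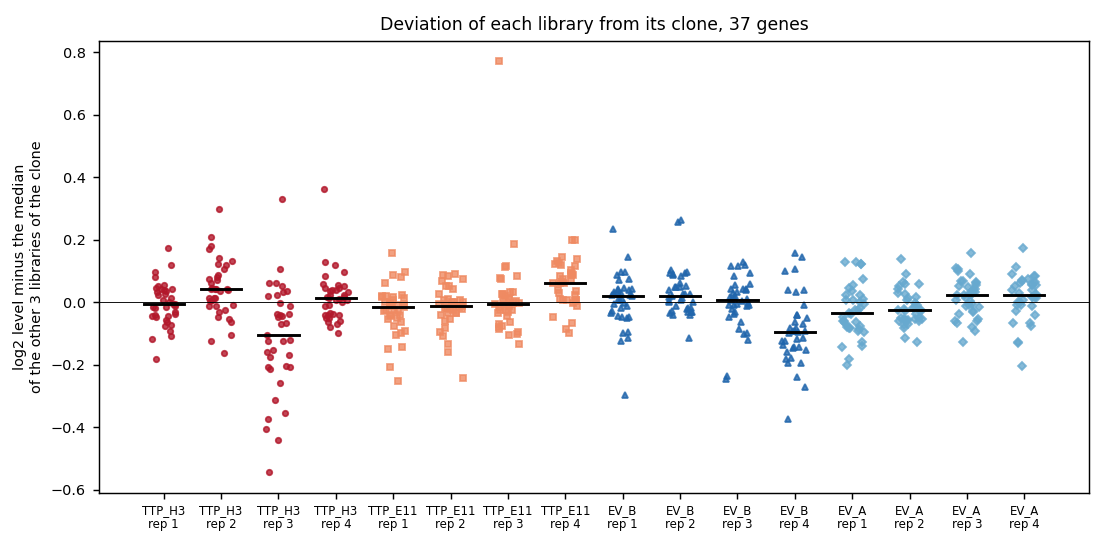
Each point is 1 of the 37 genes in 1 of the 16 libraries, as its log2 level minus the median of the other 3 libraries of the same clone (vertical axis, log2 units), and black lines mark medians over the 37. Replicate 3 of TTP_H3 and replicate 4 of EV_B have the lowest medians, -0.11 and -0.095.

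The first comparison asked which of the genes differed between the TTP clones and the EV clones. Of the 37, 29 passed at an adjusted p under 0.05 (limma on log2(normalized count + 1), Benjamini-Hochberg over all genes), 12 higher and 17 lower in TTP. Over all genes 70.0% passed, 35.4% higher and 34.6% lower, so a call in this contrast was common. The median log2 change was -0.04, against 0.00066 over all genes. CTSD, GABARAPL1 and NAGLU passed and differed by 0.5 or more in log2 units, which 22.6% of all genes did. A difference of less than 0.25 was found for 22 of the 37 and for 7327 of all 14857 genes. In bulk RNA, fewer cells with a transcript and less of it per cell cannot be told apart.

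A stricter count asked that all 4 pairings of 1 TTP clone with 1 EV clone pass with the same sign, here called concordant. This held for 13 of the 37 (38.5% of all genes), with 4 higher in TTP (19.0% of all genes), GABARAPL1, SGSH, ULK1 and MAN2B1, and 9 lower (19.5%), CTSD, NAGLU, SCARB2, CTSL, LAMP2, CTSZ, CD63, LAMP1 and MAP1LC3B. Quantile normalization gave another split, with 7 higher and 5 lower. Every TTP library lay above every EV library for 3 genes (15.6% of all genes) and below for 9 (16.2%), 12 without overlap in all (31.8%), and the arms overlapped for 25. Without the libraries that stood apart 30 passed (71.3% of all genes) and 16 were concordant (40.3%), with NEU1 added to the higher ones and ASAH1 and LIPA to the lower ones. The added calls are a description, since these libraries were picked for their distance from their clones. With reads summed per clone, 2 sums against 2, edgeR called 9 of the 37 and 28.8% of all genes. The 9 were CTSD, NAGLU, SCARB2, CTSL, LAMP2, CTSZ, GABARAPL1, SGSH and ULK1.

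**Figure D2:**
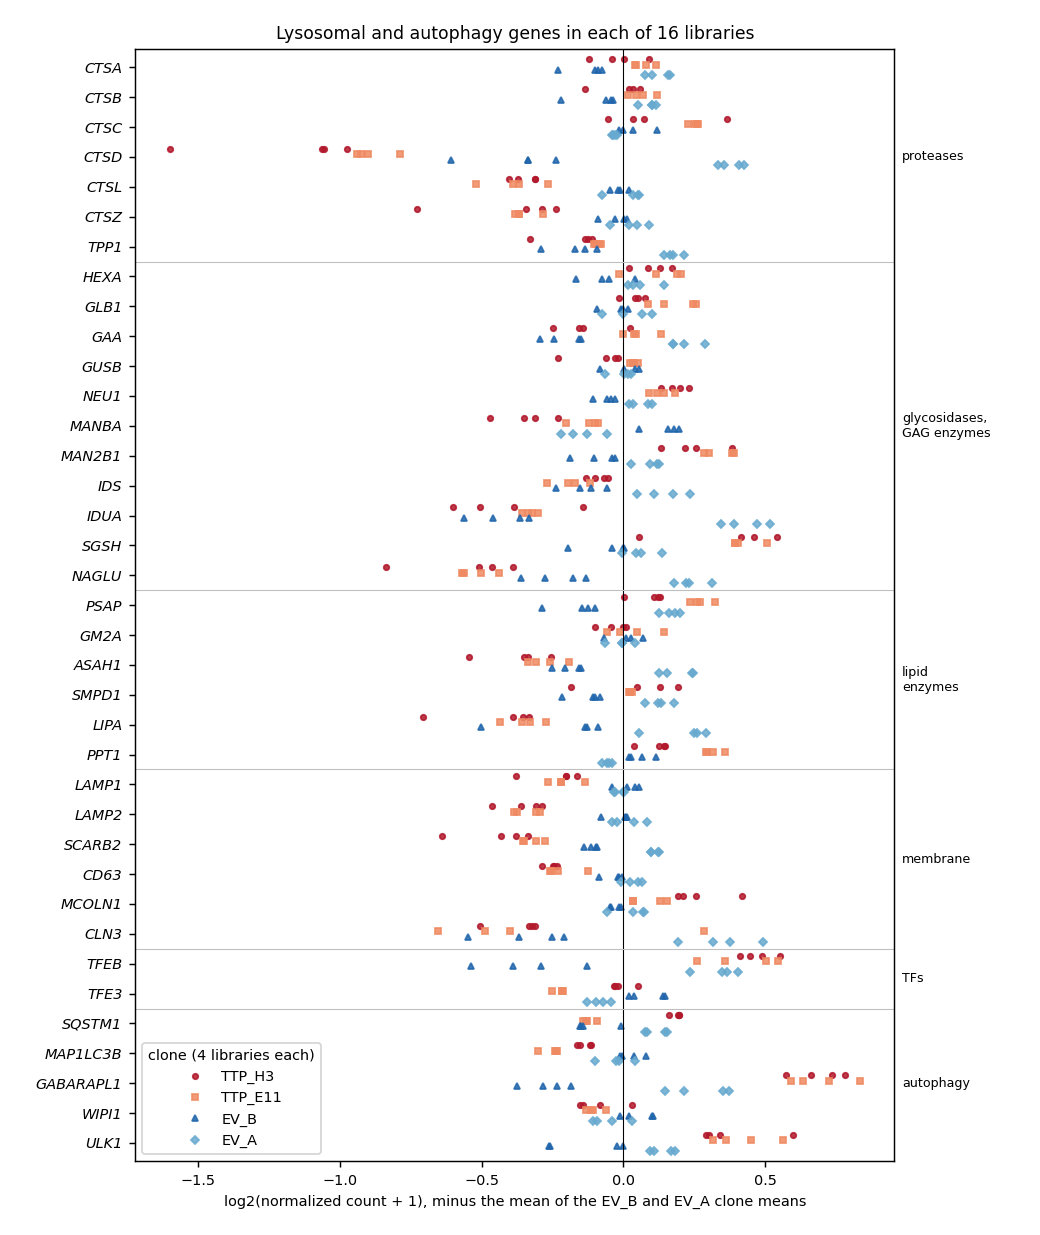
Every library of the 37 genes, with genes down the page by role and the log2 level minus the mean of the EV_B and EV_A clone means along the horizontal axis (log2 units). TTP_H3 (dark red circles) and TTP_E11 (orange squares) lie left of both EV clones (blue) for CTSD, CTSL, CTSZ, NAGLU, LAMP1, LAMP2, SCARB2, CD63 and MAP1LC3B. They lie right of them for GABARAPL1, MAN2B1 and ULK1, and for many other genes they lie between or among the EV libraries.

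The regulators were read first. TFEB had 302, 318, 333 and 309.6 normalized counts in TTP_H3 and 291, 272, 332 and 322 in TTP_E11, against 173, 208, 156 and 185 in EV_B and 300.3, 292, 289 and 267 in EV_A. TFEB (ENSG00000112561, chromosome 6, 41683978 to 41736259, GRCh38) passed as higher in TTP, with a log2 change of 0.44 ± 0.059 (SE) and a ratio of arm means of 1.33 (limma adjusted p = 6.25e-08). All TTP libraries lay above all EV_B libraries, but they overlapped those of EV_A. EV_B minus EV_A was -0.68 ± 0.084 (SE), and against EV_A alone the changes of TTP_H3 and TTP_E11 were 0.14 (adjusted p = 0.158) and 0.078 (0.434).

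TFE3 had 3024, 3180, 2997 and 3007 normalized counts in TTP_H3 and 2638, 2578, 2643 and 2648 in TTP_E11, against 3107, 3383, 3151 and 3394 in EV_B and 2867, 2806, 2918 and 2979 in EV_A. TFE3 (ENSG00000068323, chromosome X, 49028726 to 49043486), a relative of TFEB and the more abundant of the pair at 690 against 48.1 normalized counts per kb of exon, was lowest in TTP_E11. Its TTP_H3 libraries all lay above those of EV_A and overlapped those of EV_B. In the averaged contrast it was lower in TTP, with a log2 change of -0.12 ± 0.025 (SE, adjusted p = 0.000133), but not under quantile normalization (-0.018, adjusted p = 0.54). Against the EV clones TTP_E11 passed (-0.22, adjusted p = 1.39e-07) and TTP_H3 did not (-0.0083, adjusted p = 0.827). Neither factor was concordant.

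The element that TFEB and TFE3 bind was looked for in RefSeq promoter windows on GRCh38, from 250 bases before to 50 bases after a start site. Windows were found for 29 of the 37 genes, not for HEXA, LAMP2, MANBA, PSAP, CTSB, ASAH1, NAGLU and SGSH. The motif CACGTG, which reads the same on both strands, was present in a window of 8 of these 29 genes (27.6%) and of 1294 of the 10384 listed genes with a window (12.5%). The longer TCACGTGA, which contains it, was in 5 of 29 (17.2%) and in 236 of 10384 (2.27%). A match describes the letters of the window and does not show binding. The stretches of 6 genes are shown because they hold the motif and differ in how they moved in TTP. Capitals mark CACGTG, and the last base printed lies 1 base before the start site for LAMP1 and MCOLN1, 16 before it for CTSA, 26 for GAA, 31 for CTSD and 86 for NEU1.
CTSD chr11:1763958-1763987 (-): cgccggccgcgccCACGTGaccggtccggg
LAMP1 chr13:113297039-113297238 (+): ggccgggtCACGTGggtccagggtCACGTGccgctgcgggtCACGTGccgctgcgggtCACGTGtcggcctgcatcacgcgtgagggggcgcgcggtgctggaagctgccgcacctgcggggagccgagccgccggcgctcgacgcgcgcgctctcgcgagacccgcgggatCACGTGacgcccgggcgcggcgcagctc
MCOLN1 chr19:7522504-7522623 (+): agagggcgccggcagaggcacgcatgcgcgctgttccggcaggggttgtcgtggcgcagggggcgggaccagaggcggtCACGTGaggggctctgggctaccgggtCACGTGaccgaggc
NEU1 chr6:31862907-31862971 (-): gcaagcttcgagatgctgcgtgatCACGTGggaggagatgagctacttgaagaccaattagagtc
CTSA chr20:45891290-45891319 (+): tgtCACGTGgcgccggagttCACGTGactc
GAA chr17:80101461-80101555 (+): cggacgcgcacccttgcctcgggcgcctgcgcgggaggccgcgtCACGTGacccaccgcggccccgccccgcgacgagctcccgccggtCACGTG

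LAMP1 has 5 copies in the 200 bases shown, and a sixth spans its start site. MCOLN1, CTSA and GAA have 2 each, and CTSD and NEU1 have 1. CD63 and CLN3 also hold the motif. The 30 bases shown for CTSD and for CTSA lie in an annotated exon of GENCODE 29, and the other stretches do not. Of the 8 genes with it, MCOLN1 and NEU1 were higher in TTP, CTSD, LAMP1 and CD63 were lower, and CTSA, GAA and CLN3 did not pass. Of the 21 genes with a window and no motif, 7 were higher, 10 lower and 4 did not pass. The genes with an E-box in the window thus moved both ways, and their median log2 change was -0.13, against -0.024 for those without it. Over all genes 35.4% were higher and 34.6% lower, and calls were not counted over all genes with or without the motif.

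The 7 proteases were lower in TTP or did not pass, except CTSC. Of them 4 were lower (34.6% of all genes), 1 was higher (35.4%) and 2 did not pass, with a median log2 change of -0.13. Among them 3 were concordant, all lower (19.5% of all genes). CTSD (ENSG00000117984, chromosome 11, 1752752 to 1764573, minus strand) encodes cathepsin D, an aspartic protease that breast cancer cells are known to secrete, and it had the largest change of the 37 genes. CTSD had 8383, 8901, 5775 and 8418 normalized counts in TTP_H3 and 9224, 9123, 9389 and 10148 in TTP_E11, against 14834, 13881, 13868 and 11498 in EV_B and 22050, 22371, 23224 and 23533 in EV_A. All TTP libraries lay below all EV libraries, and EV_B lay between the TTP clones and EV_A. The log2 change was -1.03 ± 0.084 (SE), a ratio of arm means of 0.477 (limma adjusted p = 9.49e-08). It was -0.998 without the libraries that stood apart. Between the EV clones the difference was -0.76 ± 0.12 (SE, adjusted p = 0.000241).

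On the GENCODE 29 annotation 52.7% of the exon bases of CTSD are shared with other genes. The readthrough gene AC068580.4 lies on the same strand and AC068580.3 on the other, and the labels do not state whether counting used strand. AC068580.4 had 68.2 ± 16.4 normalized counts in TTP_H3, 65.1 ± 12.1 in TTP_E11, 78.2 ± 5.02 in EV_B and 144 ± 17.2 in EV_A (SD, n = 4 each). It was thus far below CTSD in every clone and lower in TTP as well, with a log2 change of -0.69 (adjusted p = 1.84e-06). AC068580.3 had 66.6 ± 16.3 in TTP_H3, 60.05 ± 9.47 in TTP_E11, 94.8 ± 4.7 in EV_B and 205 ± 19.6 in EV_A. Its log2 change was -1.15 (adjusted p = 1.36e-11), and EV_B minus EV_A was -1.1. Whether reads of these genes and of CTSD were counted for one another was not tested.

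CTSL (ENSG00000135047, chromosome 9, 87725519 to 87731393) and CTSZ (ENSG00000101160, chromosome 20, 58995185 to 59007247) encode the cysteine cathepsins L and Z. CTSL had 1530, 1631, 1631 and 1564 normalized counts in TTP_H3 and 1412, 1545, 1567 and 1684 in TTP_E11, against 1961, 2052, 2007 and 1996 in EV_B and 1919, 2071, 2104 and 2096 in EV_A. CTSZ had 6579, 7084, 5041 and 6843 normalized counts in TTP_H3 and 6468, 6467, 6418 and 6869 in TTP_E11, against 8363, 8180, 8420 and 7851 in EV_B and 8088, 8470, 8642 and 8895 in EV_A. In both genes every TTP library was below every EV library, and the EV clones were near each other. CTSZ was not concordant under quantile normalization. CTSL had a log2 change of -0.37 ± 0.031 (SE, adjusted p = 3.08e-12) and CTSZ one of -0.38 ± 0.059 (SE, adjusted p = 6.19e-05), with EV_B minus EV_A at -0.03 (95% interval -0.12 to 0.06) and -0.055 (-0.23 to 0.12). TPP1, a tripeptidyl peptidase, was lower (log2 change -0.13, adjusted p = 0.000253), but not under quantile normalization (-0.043, adjusted p = 0.207). Without the libraries that stood apart the log2 changes were -0.33 for CTSZ and -0.13 for TPP1. The means of TPP1 were 2262 ± 157 in TTP_H3, 2393 ± 17.2 in TTP_E11, 2264 ± 130 in EV_B and 2875 ± 59.5 in EV_A, so that TTP_H3 stood level with EV_B. CTSC, the dipeptidyl peptidase that activates granule proteases, was higher by 0.18 (adjusted p = 0.000808), at 2762, 2532, 3389 and 2692 in TTP_H3 and 3130, 3148, 3079 and 3155 in TTP_E11, against means of 2691 in EV_B and 2568 in EV_A. Its highest value was that of replicate 3 of TTP_H3, and without the libraries that stood apart the change was 0.13 (adjusted p = 1.84e-06). It was then 0.017 in TTP_H3 (adjusted p = 0.643) and 0.25 in TTP_E11 (adjusted p = 7.94e-12).

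CTSA, a carboxypeptidase that also shields the enzymes encoded by GLB1 and NEU1, and CTSB, the cysteine protease cathepsin B, did not pass. CTSA averaged 5137 ± 318 in TTP_H3, 5448 ± 133 in TTP_E11, 4766 ± 236 in EV_B and 5661 ± 170 in EV_A (SD, n = 4 each), and CTSB averaged 5189 ± 304 in TTP_H3, 5431 ± 164 in TTP_E11, 4893 ± 289 in EV_B and 5547 ± 103 in EV_A. Both TTP clones lay between the EV clones for each gene, so that TTP minus EV was 0.026 (95% interval -0.03 to 0.083) for CTSA and 0.027 (-0.031 to 0.085) for CTSB. Both passed as higher under quantile normalization, at 0.15 (adjusted p = 8.05e-06 for CTSA and 1.35e-05 for CTSB), and under upper quartile scaling, at 0.07.

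The 11 glycosidases and glycosaminoglycan enzymes moved in both directions. In TTP 5 were higher (35.4% of all genes) and 4 lower (34.6%), 2 did not pass, and the median log2 change was -0.024. The enzymes that degrade heparan sulfate did not move together. SGSH (ENSG00000181523, chromosome 17, 80206716 to 80220923) encodes the sulfamidase and NAGLU (ENSG00000108784, chromosome 17, 42536172 to 42544449) the N-acetylglucosaminidase that act in turn on its chain. SGSH had 942, 972, 733 and 1029 normalized counts in TTP_H3 and 929, 928, 1004 and 935 in TTP_E11, against 706, 686, 706 and 617 in EV_B and 728, 776, 704 and 738 in EV_A. NAGLU had 828, 900.4, 659 and 854 normalized counts in TTP_H3 and 832, 798, 794 and 869 in TTP_E11, against 1077, 1043, 974 and 919 in EV_B and 1385, 1334, 1375 and 1465 in EV_A. SGSH was higher in TTP except in replicate 3 of TTP_H3, which overlapped the EV libraries, and every TTP library of NAGLU was below every EV library. The log2 changes were 0.40 ± 0.052 (SE) for SGSH (ratio 1.32, adjusted p = 3.59e-07) and -0.54 ± 0.05 (SE) for NAGLU (ratio 0.683, adjusted p = 2.25e-09). Without the libraries that stood apart they were 0.43 and -0.51.

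IDUA (ENSG00000127415, chromosome 4, 986997 to 1004506), the iduronidase of the same pathway, differed chiefly between the EV clones. IDUA had 281, 305, 262 and 361 normalized counts in TTP_H3 and 318, 316, 311 and 324 in TTP_E11, against 289, 309, 317 and 269.9 in EV_B and 572, 523, 507 and 554 in EV_A. The EV_A libraries stood alone, and the other 3 clones overlapped. EV_B minus EV_A was -0.86 ± 0.079 (SE, ratio 0.55, adjusted p = 4.75e-10), and TTP minus EV was -0.37 ± 0.056 (SE, adjusted p = 5.09e-07). IDS, the iduronate sulfatase, was likewise highest in EV_A, with means of 699 ± 16.4 in TTP_H3, 653 ± 28.4 in TTP_E11, 675 ± 35.1 in EV_B and 821 ± 46 in EV_A, and TTP minus EV was -0.14 (adjusted p = 0.00149).

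MAN2B1 (ENSG00000104774, chromosome 19, 12646511 to 12666742) and MANBA (ENSG00000109323, chromosome 4, 102630770 to 102760994) encode the lysosomal alpha- and beta-mannosidase. MAN2B1 had 1994, 2180, 1830 and 1939 normalized counts in TTP_H3 and 2179, 2060, 2032 and 2188 in TTP_E11, against 1634, 1623, 1555 and 1466 in EV_B and 1701, 1782, 1821 and 1812 in EV_A. MANBA had 320, 270.3, 294 and 302 normalized counts in TTP_H3 and 349.8, 345, 353 and 326 in TTP_E11, against 425, 418, 390.1 and 429.7 in EV_B and 361, 331, 322 and 344 in EV_A. Every TTP library of MAN2B1 lay above every EV library, whereas MANBA was highest in EV_B and lowest in TTP_H3, with TTP_E11 overlapping EV_A. MAN2B1 was higher by 0.29 ± 0.032 (SE, adjusted p = 1.26e-09; with reads summed per clone, edgeR adjusted p = 0.0593) and MANBA had a change of -0.23 ± 0.048 (SE, adjusted p = 5.79e-05). MANBA was the only glycosidase that passed as higher in EV_B than in EV_A (0.29, adjusted p = 0.00086).

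NEU1, a sialidase, was higher in TTP by 0.16 ± 0.024 (SE, adjusted p = 6.83e-07), and its clone means were 3266 ± 94.7 in TTP_H3, 3156 ± 82.8 in TTP_E11, 2759 ± 62.4 in EV_B and 2999 ± 81.9 in EV_A (SD, n = 4 each). The beta-hexosaminidase subunit HEXA and the beta-galactosidase GLB1 were each higher by 0.11 (adjusted p = 0.00633 and 0.00209), a ratio of arm means of 1.08 for both. Against EV_A alone HEXA did not pass, at 0.04 in TTP_H3 (adjusted p = 0.51) and 0.06 in TTP_E11 (adjusted p = 0.317). GLB1 passed in TTP_E11 alone against the EV clones (0.18, adjusted p = 8.83e-05) and did not pass in TTP_H3 (0.038). GAA, the acid alpha-glucosidase of glycogen breakdown, and GUSB, the beta-glucuronidase, did not pass, at -0.04 (95% interval -0.11 to 0.034) and -0.024 (-0.086 to 0.038). The sign turned under upper quartile scaling for both (0.00368 and 0.0194), and for GUSB under quantile normalization (0.049).

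Among the 6 genes of lipid breakdown 2 were higher (35.4% of all genes), 2 lower (34.6%) and 2 did not pass. None was concordant (38.5% of all genes). PSAP (ENSG00000197746, chromosome 10, 71816298 to 71851375) encodes prosaposin, the precursor of the saposins that present sphingolipids to their enzymes, and had the highest level of the 37 per kb of exon, at 6220 normalized counts per kb. It averaged 20002 ± 818 in TTP_H3, 22686 ± 598 in TTP_E11, 16769 ± 942 in EV_B and 21084 ± 469 in EV_A (SD, n = 4 each). PSAP was higher in TTP by 0.18 (adjusted p = 8.44e-08), but EV_B minus EV_A was -0.33 and the TTP_H3 mean was below that of EV_A. PPT1, a palmitoyl thioesterase, was higher by 0.21 ± 0.025 (SE, adjusted p = 3.54e-09), with means of 2525 ± 88.4 in TTP_H3, 2903 ± 62.5 in TTP_E11, 2427 ± 76.1 in EV_B and 2244 ± 24.5 in EV_A.

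LIPA, the acid lipase that frees cholesterol from its esters, and the acid ceramidase ASAH1 were lower. LIPA averaged 1134 ± 130 in TTP_H3, 1208 ± 56.7 in TTP_E11, 1335 ± 167 in EV_B and 1787 ± 127 in EV_A, a log2 change of -0.40 ± 0.07 (SE, adjusted p = 0.000141). ASAH1 averaged 1286 ± 106 in TTP_H3, 1374 ± 60.7 in TTP_E11, 1456 ± 48.2 in EV_B and 1898 ± 79.1 in EV_A, a log2 change of -0.32 ± 0.035 (SE, adjusted p = 6.41e-10). In both, EV_B lay between EV_A and the TTP clones, and both became concordant without the libraries that stood apart. The log2 changes were then -0.40 for LIPA and -0.305 for ASAH1. The ganglioside activator GM2A and the acid sphingomyelinase SMPD1 did not pass, at -0.0027 (95% interval -0.077 to 0.071) and 0.036 (-0.042 to 0.11), and SMPD1 had both TTP clone means between the EV clone means. SMPD1 passed as higher when replicate 3 of TTP_H3 was left out (0.074, adjusted p = 0.0206) and under quantile normalization (0.10, adjusted p = 0.0147).

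Of the 6 lysosomal membrane genes, 4 were lower in TTP (34.6% of all genes), MCOLN1 was higher (35.4%) and CLN3 did not pass. The median log2 change was -0.29. The 4 lower genes were all concordant, as 19.5% of all genes were in that direction. LAMP1 and CD63 were not concordant under quantile normalization, nor called with reads summed per clone (edgeR adjusted p = 0.0691 and 0.0726). LAMP1 and LAMP2 encode the most abundant glycoproteins of the lysosomal membrane, LAMP2 with an isoform for chaperone-mediated autophagy. SCARB2 carries glucocerebrosidase to the lysosome, and CD63 is a tetraspanin of late endosomes and exosomes. LAMP2 had 2257, 2293, 2029 and 2178 normalized counts in TTP_H3 and 2140, 2258, 2282 and 2155 in TTP_E11, against 2809, 2817, 2819 and 2645 in EV_B and 2717, 2752, 2961 and 2871 in EV_A. SCARB2 had 1985, 1856, 1610 and 1926 normalized counts in TTP_H3 and 1967, 2024, 2071 and 1959 in TTP_E11, against 2318, 2346, 2347 and 2278 in EV_B and 2682, 2732, 2730 and 2680 in EV_A. In both genes every TTP library was below every EV library. LAMP2 (ENSG00000005893, chromosome X, 120427827 to 120469365) had a log2 change of -0.35 ± 0.028 (SE, ratio 0.786, adjusted p = 1.15e-12) and SCARB2 (ENSG00000138760, chromosome 4, 76158733 to 76234536) one of -0.39 ± 0.031 (SE, ratio 0.766, adjusted p = 1.12e-12).

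LAMP1 averaged 4742 ± 305 in TTP_H3, 4822 ± 182 in TTP_E11, 5645 ± 166 in EV_B and 5518 ± 72.5 in EV_A (SD, n = 4 each), and CD63 averaged 7247 ± 121 in TTP_H3, 7433 ± 333 in TTP_E11, 8453 ± 212 in EV_B and 8843 ± 200 in EV_A. Their log2 changes were -0.22 ± 0.027 (SE, adjusted p = 6.49e-09) and -0.24 ± 0.023 (SE, adjusted p = 4.77e-11), again with no overlap of the arms. For LAMP1, LAMP2 and CD63 EV_B minus EV_A was 0.032, -0.027 and -0.065 and did not pass. MCOLN1, the lysosomal calcium channel mucolipin 1, was higher by 0.18 (adjusted p = 3.52e-05), at 1132 ± 83.2 in TTP_H3 and 998 ± 43.9 in TTP_E11, against 919 ± 13.3 in EV_B and 957 ± 39.8 in EV_A, and TTP_E11 alone did not pass (0.088, adjusted p = 0.0714).

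CLN3, a membrane protein mutated in juvenile Batten disease, had few reads, 13 in its shallowest library, where the other 36 genes had at least 157. CLN3 had 18.2, 20.6, 20.9 and 20.8 normalized counts in TTP_H3 and 16.3, 19.6, 32.2 and 18.4 in TTP_E11, against 17.6, 20.1, 21.9 and 22.6 in EV_B and 30.1, 34.4, 32.9 and 37.3 in EV_A. EV_A stood above the other clones, apart from replicate 3 of TTP_E11 at 32.2, which overlapped it. TTP minus EV was -0.34 ± 0.16 (SE, adjusted p = 0.054), and EV_B minus EV_A was -0.69 ± 0.22 (SE, adjusted p = 0.0149). Without replicate 3 of TTP_E11 TTP minus EV was -0.44 (adjusted p = 0.0128), and without replicate 1 of EV_B it was -0.38 (adjusted p = 0.0423). CLN3 shares 30.9% of its exon bases with other genes, AC138894.1 on the same strand and APOBR on the other. Whether its reads were lost to them in counting was not tested.

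**Figure D3:**
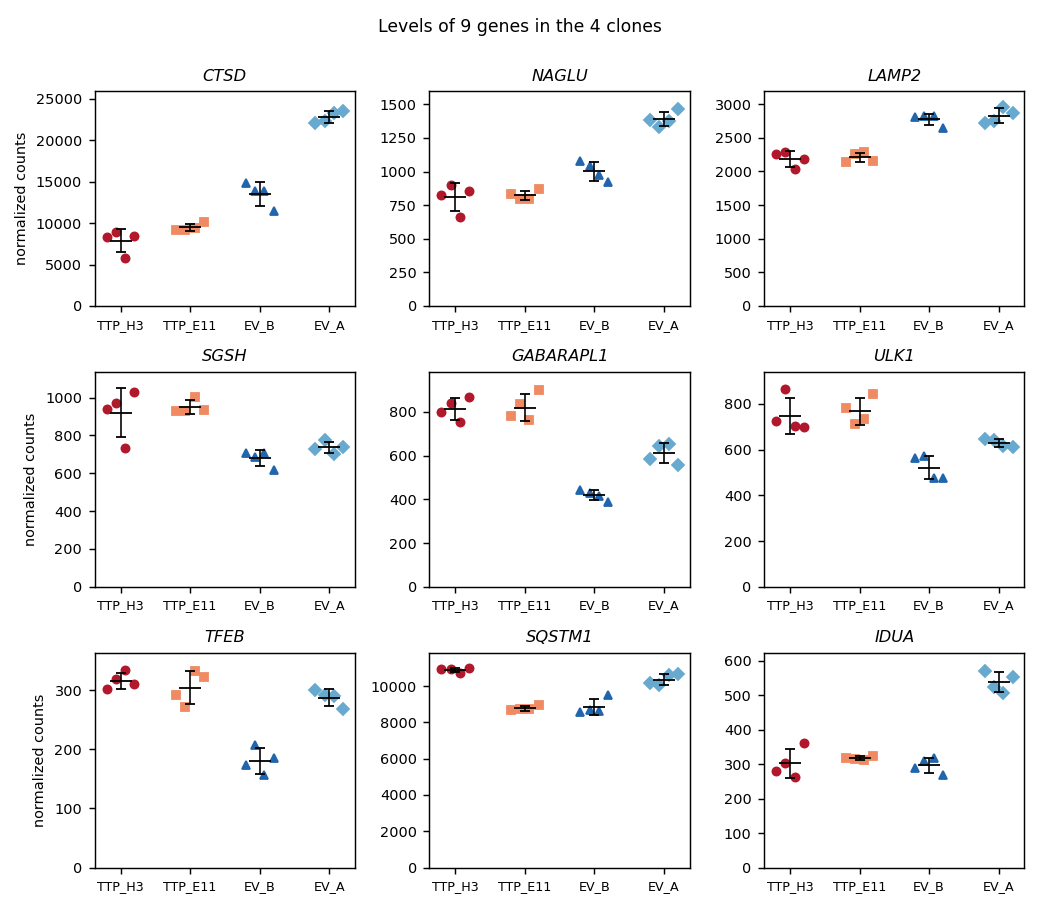
Normalized counts (vertical axes, from 0) of 9 genes in the 4 clones, with 1 point per library, bars for the mean and SD of 4. CTSD, NAGLU and LAMP2 are lower and SGSH, GABARAPL1 and ULK1 higher in both TTP clones, TFEB is low in EV_B alone, SQSTM1 is high in TTP_H3 and EV_A, and IDUA is high in EV_A alone.

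Among the 5 autophagy genes, 2 were higher (35.4% of all genes), 2 lower (34.6%) and 1 did not pass. GABARAPL1 (ENSG00000139112, chromosome 12, 10212458 to 10223130) encodes a protein of the ATG8 family, which is attached to the autophagosome membrane, and had the largest rise of the 37. GABARAPL1 had 799, 841, 752 and 868 normalized counts in TTP_H3 and 784, 835, 761 and 900.5 in TTP_E11, against 444, 429, 415 and 388 in EV_B and 585, 644, 653 and 559 in EV_A. Every TTP library was above every EV library, and EV_B was the lowest clone. It was higher by 0.69 ± 0.044 (SE), a ratio of 1.59 (limma adjusted p = 3.12e-15), and against EV_A alone by 0.42 in TTP_H3 and 0.43 in TTP_E11. MAP1LC3B (ENSG00000140941, chromosome 16, 87383995 to 87404779), which encodes the better-known ATG8 protein LC3B, was lower.

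MAP1LC3B had 1774, 1762, 1820 and 1824 normalized counts in TTP_H3 and 1601, 1667, 1679 and 1674 in TTP_E11, against 1966, 2085, 2026 and 1958 in EV_B and 1841, 1950, 2031 and 1939 in EV_A. The arms did not overlap, but TTP_H3 replicate 4 at 1824 and EV_A replicate 1 at 1841 were close. The log2 change was -0.20 ± 0.027 (SE, ratio 0.874, adjusted p = 9.14e-08). The gene was not concordant under upper quartile scaling, under quantile normalization or without replicate 3 of EV_A, and was not called with reads summed per clone (edgeR adjusted p = 0.103).

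ULK1 (ENSG00000177169, chromosome 12, 131894651 to 131923167) encodes the kinase that starts autophagosome formation. ULK1 had 725, 866, 704 and 700.5 normalized counts in TTP_H3 and 781, 712, 735 and 845 in TTP_E11, against 562, 571, 478 and 477 in EV_B and 649, 642, 617 and 609.8 in EV_A. Every TTP library lay above every EV library, and EV_B was again below EV_A. ULK1 was higher by 0.40 ± 0.049 (SE, ratio 1.32, adjusted p = 2.2e-08). WIPI1, which binds the phosphoinositide of the growing membrane, had a log2 change of -0.096 ± 0.04 (SE, adjusted p = 0.0319), and this call was lost under upper quartile scaling and without any 1 of replicates 2 or 4 of TTP_H3, 1 of TTP_E11, 2 or 3 of EV_B and 1 or 2 of EV_A (adjusted p = 0.0505 to 0.0752 without one library).

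SQSTM1 (ENSG00000161011, chromosome 5, 179806398 to 179838078) encodes p62, the receptor that carries ubiquitinated cargo into autophagosomes. SQSTM1 had 10919, 10965, 10692 and 10969 normalized counts in TTP_H3 and 8670, 8758, 8720 and 8966 in TTP_E11, against 8594, 8658, 8613 and 9513 in EV_B and 10142, 10071, 10586 and 10639 in EV_A. The clones fell into a high pair, TTP_H3 and EV_A, and a low pair, TTP_E11 and EV_B. The averaged contrast did not pass (0.031, 95% interval -0.015 to 0.077, adjusted p = 0.219). Against both EV clones TTP_H3 was higher by 0.19 (adjusted p = 4.98e-07) and TTP_E11 lower, at -0.12 (adjusted p = 0.000212), which made it the 1 gene of the 37 with opposite calls in the TTP clones. Without replicate 4 of EV_B, whose 9513 was the highest of its clone, the averaged contrast passed (0.049, adjusted p = 0.0284). It also passed under upper quartile scaling (0.075, adjusted p = 0.00313) and quantile normalization (0.15, adjusted p = 9.32e-07).

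The EV clones carry no introduced TTP, and their difference serves as a background of clone to clone variation. Between EV_B and EV_A 23 of the 37 passed (36.8% of all genes), 3 higher (20.2% of all genes) and 20 lower (16.6%). The 3 higher were MANBA, PPT1 and TFE3. The median log2 change of the 37 was -0.18, against 0.0051 over all genes. Of the 37, 5 differed by at least 0.5, where 1521 of all 14857 genes did. The largest differences were those of IDUA, CTSD and CLN3 described above, followed by TFEB and GABARAPL1 (-0.54). EV_A had the highest clone mean for 17 of the 37 genes and EV_B the lowest for 15. For CTSA, CTSB, GAA, IDUA and SMPD1 both TTP clone means fell between the EV means, for 12 genes both fell below them and for 11 both lay above them. The order of clone means was not counted over all genes, so these counts describe the 37 alone.

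**Figure D4:**
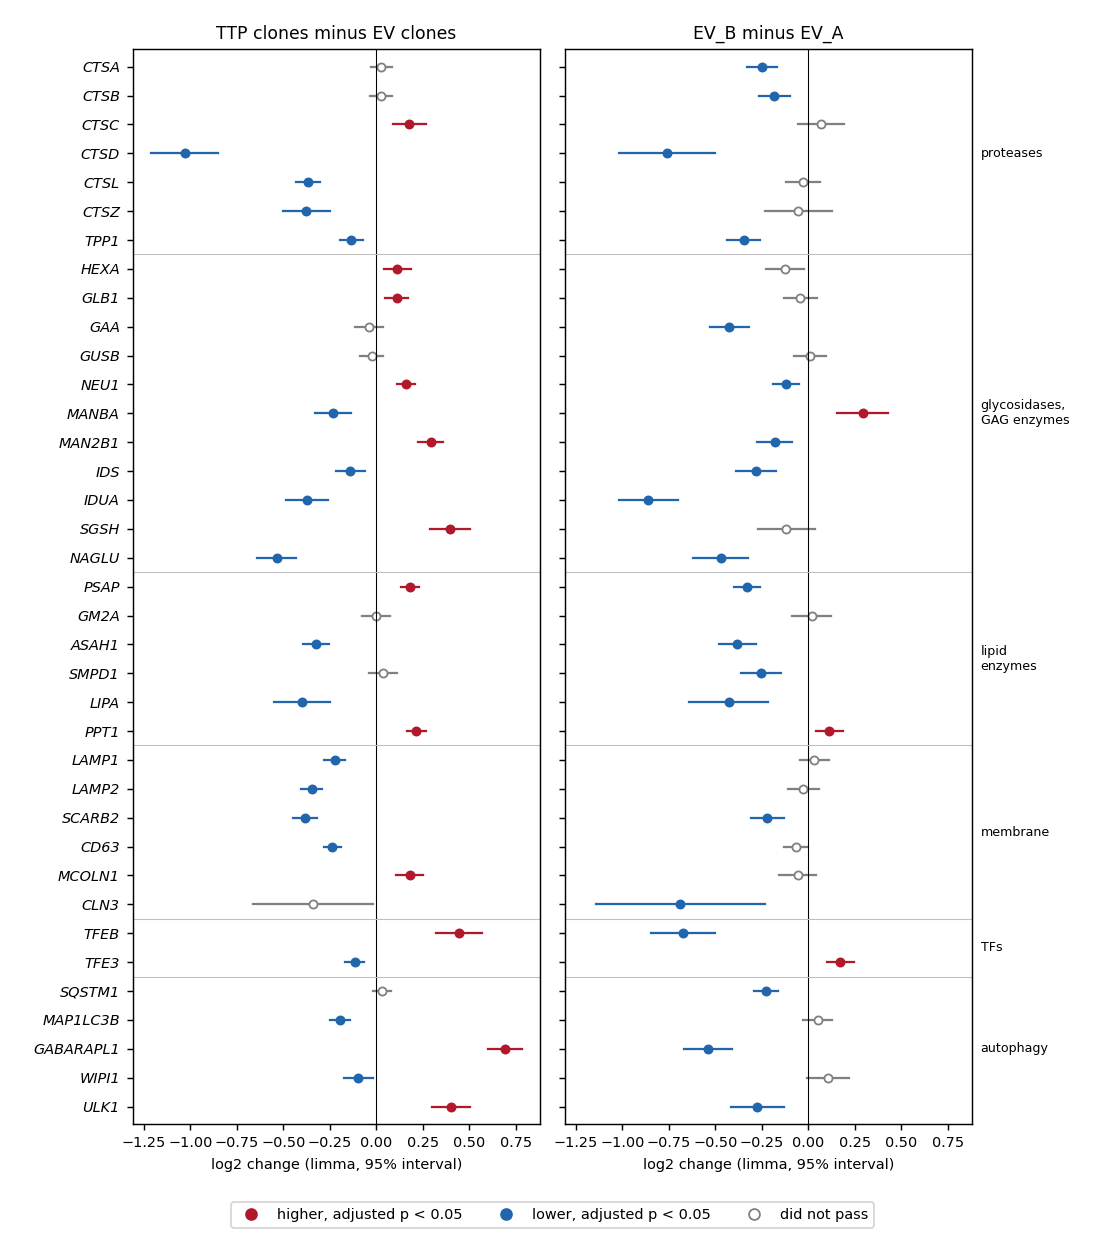
Log2 changes with 95% intervals from limma (horizontal axes) of the 37 genes by role, for TTP minus EV on the left and EV_B minus EV_A on the right. Red and blue mark genes that passed as higher or lower, and 20 of the 37 are blue on the right against 17 on the left.

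Together the 37 genes took 0.593% ± 0.028 of the normalized counts in TTP_H3, 0.616% ± 0.012 in TTP_E11, 0.573% ± 0.019 in EV_B and 0.696% ± 0.013 in EV_A (SD, n = 4 each). EV_A was highest and the other 3 clones were near each other. CTSD and PSAP together made up 25.9% of this sum in TTP_H3, 28.7% in TTP_E11, 27.2% in EV_B and 33.2% in EV_A. Per kb of annotated exon, PSAP, CTSD, CTSZ and CD63 were the most abundant of the 37, at 6220, 4290, 3640 and 3040 normalized counts per kb as means of the clones. The least abundant were TFEB, MANBA and CLN3 at 48.1, 29.7 and 2.43. CLN3 shares exon bases with other genes, and whether this lowered its count was not tested. Exon lengths are unions over all GENCODE 29 transcripts, so genes with many rare exons are understated.

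Each TTP clone was also set against the EV clones, which they share as controls. TTP_H3 gave 27 calls (64.7% of all genes), 11 higher (32.7%) and 16 lower (32.0%), or 17 and 15 under quantile normalization, and TTP_E11 gave 27 (64.6% of all genes), also 11 (32.6%) and 16 (32.0%). Set directly against TTP_E11, TTP_H3 differed in 9 of the 37 (11.7% of all genes), 4 higher in TTP_H3 (6.35% of all genes) and 5 lower (5.32%). SQSTM1 had the largest, at 0.31 ± 0.032 (SE, ratio 1.24, adjusted p = 1.58e-08). TFE3 (0.22, adjusted p = 8.27e-05), MCOLN1 (0.18, adjusted p = 0.0148) and MAP1LC3B (0.12, adjusted p = 0.0389) were also higher in TTP_H3. MANBA (-0.21), PPT1 (-0.20), GAA (-0.18), PSAP (-0.18) and GLB1 (-0.14) were lower in it.

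The count between the TTP clones depended on single libraries, at 5 without replicate 3 of TTP_E11 and 6 without replicate 2 or 4. SQSTM1, TFE3, PSAP and PPT1 passed in all 26 settings tried. Without the libraries that stood apart 11 passed (19.2% of all genes), and CTSD and CTSC were added as lower in TTP_H3, CTSD at -0.14 (adjusted p = 0.000699) and CTSC at -0.23 (adjusted p = 3.4e-07). These additions are likewise a description. ZFP36 itself was higher in TTP_H3 than in TTP_E11, at 14365 and 10482 normalized counts.

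Because TTP binds AU-rich elements, annotated 3′ UTRs were searched for their core. The 3′ UTR of 1 transcript per gene was used, the transcript with the longest coding sequence. Other transcripts were not searched, so a gene counted as without the motif may hold it there. ATTTA was present in 20 of the 37 genes (54.1%), against 66.9% of 12545 listed genes with such a 3′ UTR. These UTRs of the 37 were shorter, with a median of 551 bases against 982. Of the 20 genes with ATTTA, 7 were higher, 10 lower and 3 did not pass, and of the 17 without it 5 were higher, 7 lower and 5 did not pass. Over all genes 35.4% were higher and 34.6% lower, and calls were not counted over all genes with or without ATTTA. The nonamer TTATTTATT was in 1 of the 37 (2.7%, against 8.03% of all), MCOLN1, which was higher in TTP. The medians were -0.049 with ATTTA and -0.04 without it.

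The rest of the pathway was counted in 5 lists of further genes, for which the shares over all genes given above (35.4% higher, 34.6% lower, 19.0% and 19.5% concordant, median 0.00066) are the background. Genes named from them are among the concordant ones with the largest log2 changes of TTP minus EV. Of 35 other lysosomal hydrolases measured, 15 rose in the TTP clones and 13 fell, with 10 and 4 of them concordant (median 0.023). The serine carboxypeptidase CPVL had the largest difference, at mean normalized counts of 263 ± 34.6 in TTP_H3, 27.3 ± 5.02 in TTP_E11, 6.86 ± 3.6 in EV_B and 3.79 ± 0.764 in EV_A (SD, n = 4 each), a log2 change of 3.87, and TTP_H3 minus TTP_E11 was 3.23 (adjusted p = 2.01e-10). The proteases CTSV and CTSF and the phospholipase PLA2G15 were higher by 0.61, 0.46 and 0.47. The sulfatase GALNS, PLBD2 and the aspartylglucosaminidase AGA were lower, at -0.34, -0.33 and -0.28.

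Of 22 measured subunits of the V-ATPase, the proton pump that acidifies the lysosome, 10 were higher and 9 lower, with 5 and 3 concordant (median -0.038). ATP6V0A1 averaged 1362 ± 59 in TTP_H3, 1308 ± 29.7 in TTP_E11, 747 ± 39.3 in EV_B and 703 ± 26.7 in EV_A, a log2 change of 0.88, and ATP6V0A2, ATP6V0E2 and ATP6V0D1 were higher by 0.42, 0.39 and 0.30. ATP6V1E1 averaged 968 ± 57.9 in TTP_H3, 962 ± 14.7 in TTP_E11, 1374 ± 98.4 in EV_B and 1539 ± 113 in EV_A, a log2 change of -0.59, and ATP6V1A and ATP6V1C1 were lower, at -0.50 and -0.24.

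Of 33 lysosomal transporters and sorting proteins, 16 were higher and 12 lower, with 11 and 9 concordant (median 0.04). The chloride channel subunit OSTM1 had the largest fall, at 294 ± 20.1 in TTP_H3, 274 ± 5.7 in TTP_E11, 671 ± 21.6 in EV_B and 634 ± 28.8 in EV_A, a log2 change of -1.20. NPC1, which exports cholesterol from the lysosome, the sorting receptor SORT1 and the sialic acid exporter SLC17A5 were lower, at -0.64, -0.44 and -0.43. The nucleoside transporter SLC29A3, the cystine exporter CTNS, the amino acid sensor SLC38A9 and the adaptor GGA2 were higher by 1.07, 0.60, 0.53 and 0.44.

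Of 48 other autophagy genes measured, 19 were higher and 18 lower, with 13 and 9 concordant (median 0.041). MAP1LC3A, a relative of MAP1LC3B, was higher at 220.5 ± 20.7 in TTP_H3, 287 ± 9.72 in TTP_E11, 94.7 ± 10.2 in EV_B and 126 ± 17.8 in EV_A, a log2 change of 1.20. RUBCN, which restrains autophagosome maturation, was higher by 0.69, ATG14 by 0.64 and WIPI2 by 0.51. ULK2, the relative of ULK1, was lower at 204 ± 10 in TTP_H3, 178 ± 10.9 in TTP_E11, 254 ± 27.5 in EV_B and 315 ± 19.4 in EV_A, a log2 change of -0.57. ATG4D, the lipid scramblase TMEM41B and the late endosome GTPase RAB7A were lower, at -0.64, -0.61 and -0.31.

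Of 26 relatives and nutrient-sensing regulators of TFEB, 8 were higher and 11 lower, with 3 and 8 concordant (median -0.036). MITF, of the same family as TFEB and TFE3, was higher at 302 ± 32.1 in TTP_H3, 385 ± 28.5 in TTP_E11, 149 ± 10.6 in EV_B and 133 ± 21.6 in EV_A, a log2 change of 1.27. The mTOR inhibitor DEPTOR was higher by 1.95 and TSC1, which restrains mTORC1, by 0.36. RHEB, the GTPase that activates mTORC1, was lower at 2870 ± 150 in TTP_H3, 2868 ± 83 in TTP_E11, 6017 ± 55.5 in EV_B and 5611 ± 164 in EV_A, a log2 change of -1.02. The 14-3-3 protein YWHAZ, the AMPK subunit PRKAA2 and RRAGC, a GTPase that brings mTORC1 to the lysosome, were lower, at -0.66, -0.45 and -0.40.

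**Figure D5:**
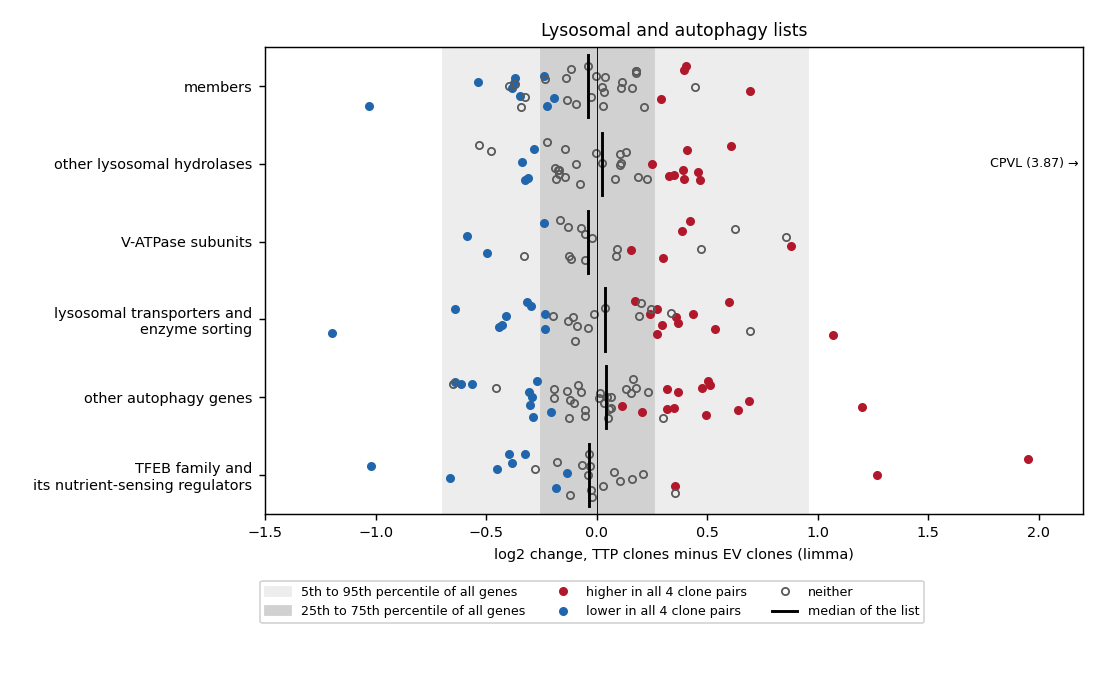
Log2 change of TTP minus EV (horizontal axis, limma) for the 37 genes (top row) and 5 further lists, with 1 point per gene, filled where the gene was higher (red) or lower (blue) in all 4 clone pairs, black lines at the medians and grey bands for the 5th to 95th and 25th to 75th percentile of all genes. The 6 medians lie between -0.04 and 0.041, and CPVL lies off the axis at 3.87.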

How the data were processed

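RNA of 16 cultures was sequenced. Named in the submitters' processing notes are DESeq2, featureCounts, STAR 2.5.2b, Trimmomatic 0.36, Subread 1.5.2 and GRCh38, without settings. The annotation used and the handling of strand are not given in the sources used here. Deposited values are normalized counts, a signal equal to read counts that the authors divided by a size factor per library, and the authors' table also holds their log2 fold changes, p-values and adjusted p-values. All values (100%) were whole multiples, within 0.001, of what 1 read was worth in their library, which was 1.009 and 0.9975 in replicates 1 and 3 of TTP_H3, near 1, where this is a weaker check. The count branch of the planned test was not used, since the values are normalized.

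Limma 3.58.1 (R 4.3.3; trend and robust) was fitted to log2(normalized count + 1) of all 14857 genes in 16 libraries with 4 clone groups. P-values were Benjamini-Hochberg adjusted over all genes, with a threshold of 0.05. Fold changes are on the log2(value + 1) scale. TTP versus EV is the mean of the 2 TTP clone means minus that of the 2 EV clone means. The alternatives were DESeq2 1.42.0 and edgeR 4.0.16 on recovered reads (10227 and 10456 genes called in TTP versus EV), pseudocounts of 0.1 and 5, a minimum mean of 10, upper quartile and quantile scaling, a replicate block, each library left out in turn, both libraries that stood apart left out, and reads summed per clone. Tests were checked on simulated data in which clones of the same arm did not differ. The check therefore does not cover variation between clones. The 37 genes and all lists were chosen with earlier results of these data known. Values in every library are given for TFEB, TFE3, SQSTM1, MAP1LC3B, the concordant genes with the largest changes in the clone pair where each changed least (at most 6 per direction), and the 3 largest differences between the TTP clones and between the EV clones. Other values in every library were added after they were seen. Promoter windows are RefSeq on GRCh38, and exons and 3′ UTRs are GENCODE 29. The 3′ UTR is that of the transcript with the longest coding sequence. One gene that the naming rule chose from a pathway list is not reported here.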

Additional observations from a re-analysis of the deposited data

Results flagged for a closer look

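Within the 4 clones 148 groups of 4 libraries (37 genes in 4 clones) were examined for 1 library far from the other 3, and 15 were found, where chance gives about 1 in 20, or 7.4. Of these, 5 lay in replicate 4 of EV_B, with CTSB at 4464, LIPA at 1086, LAMP2 at 2645, CD63 at 8139 and SQSTM1 at 9513 normalized counts. SQSTM1 was the highest library of its clone and the other 4 were the lowest. Replicate 3 of TTP_H3 held 3, with CTSD at 5775, TPP1 at 2028 and LIPA at 940.7, each the lowest of its clone. CLN3 was low in replicate 1 of TTP_H3 at 18.2, and TFE3 at 3180 and ULK1 at 866 were high in replicate 2 of that clone. In TTP_E11, MAP1LC3B was low in replicate 1 at 1601, TFE3 low in replicate 2 at 2578, SGSH high in replicate 3 at 1004 and CTSZ high in replicate 4 at 6869.

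The changes of the 2 TTP clones against the same EV libraries differed for 9 genes, by the test of TTP_H3 against TTP_E11 (limma, Benjamini-Hochberg adjusted over all genes), where EV cancels. In log2 units the differences were 0.31 for SQSTM1, 0.22 for TFE3, 0.18 for MCOLN1, 0.12 for MAP1LC3B, -0.21 for MANBA, -0.20 for PPT1, -0.18 for GAA, -0.18 for PSAP and -0.14 for GLB1. SQSTM1 was called in opposite directions in the TTP clones. Against the EV clones GAA was lower in TTP_H3 (-0.13, adjusted p = 0.0102) and did not pass in TTP_E11 (0.052, adjusted p = 0.31).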

How the results depend on the processing

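With each alternative, 28 to 37 of the 37 log2 changes of TTP against EV kept their sign and their side of the threshold, apart from reads summed per clone, where 17 did. In that design of 2 sums against 2, edgeR called 9 genes, 3 higher and 6 lower, and 4280 of all genes. Quantile normalization moved the genes higher in TTP_H3 against EV to 17 (11 without it), and the concordant genes to 7 higher (4) and 5 lower (9). It ended the concordant call of CTSZ, LAMP1, CD63 and MAP1LC3B, and that of MAP1LC3B was also lost with upper quartile scaling and without replicate 3 of EV_A. No scaling moved the median of all genes by over 0.044. With both libraries that stood apart left out, 2851 of all genes were called between the TTP clones, against 1735. Leaving out 1 library gave 1118 to 2261 there, with 5 to 10 of the 37 called, 2 to 4 higher and 3 to 7 lower, and replicates 2, 3 and 4 of TTP_E11 gave the low counts. Signs turned for genes that did not pass. GM2A was 0.0031 with edgeR, 0.041 with upper quartile scaling and 0.00532 with quantile normalization, GUSB was 0.019 and 0.049 with these scalings and GAA was 0.00368 with upper quartile scaling. With 1 library left out, GM2A ranged between -0.022 and 0.012 and GUSB between -0.039 and 0.00048. The cause was not tested. The replicate number as a block left 29 genes called, 13 concordant, 9 between the TTP clones and 24 between the EV clones (23 without the block), and none of 24 pairs of same-numbered libraries correlated over 0.1 (-0.057 to 0.058), so the numbers do not pair the libraries. Within each pair of clones, the same number correlated best in 2 of 24. With 13 reads in its shallowest library, CLN3 has the least depth, and the only test with clones as the unit is that of the sums, 2 against 2.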

Other observations

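The V-ATPase subunits were split by sector after their values were seen, so the split is a description. Of the 8 subunits of the membrane sector, which carries the protons, 6 were higher in TTP, 1 was lower and 1 did not pass, and 4 were concordant, all higher. Of the 12 subunits of the cytosolic sector, which hydrolyses ATP, 4 were higher, 7 were lower and 1 did not pass, with 1 concordant higher and 3 concordant lower. Of the 2 accessory subunits, 1 was lower and 1 did not pass. Over all genes 35.4% were higher and 34.6% lower, with 19.0% and 19.5% concordant. The difference between the sectors was not tested.

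In the authors' deposited table, at the same threshold of 0.05, 12 of the 37 genes rose in TTP, where 32.0% of all genes did, 14 fell (31.7% of all genes) and 11 did not pass. There TPP1, TFE3 and WIPI1, which were lower here, had adjusted p-values of 0.0607, 0.0552 and 0.0618.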
